A study of Mus musculus with 22 samples.

Results

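The inflammasome and gasdermin genes described here were 10 rows of the table, Nlrp6, Aim2, Pycard, Casp1, Casp4, Gsdmd, Gsdmc2, Gsdmc3, Gsdmc4 and Il18, chosen by gene name out of 52636 genes and followed through all 22 RNA-seq libraries of mouse intestinal organoids exposed to cold atmospheric plasma (CAP). Each library came from 1 of 4 organoid lines, each grown from small intestinal crypts of 1 adult wild-type CD1 mouse aged 2 months, replated in Matrigel and collected at day 3. Untreated organoids comprised 4 libraries (lines 1 to 4) and each of 6 treated groups comprised 3 libraries (lines 1, 2 and 4). Organoids had received helium plasma (50 W for 60 s) directly at day 1, with the medium exchanged after 30 min (direct CAP 30 min) or after 24 h (direct CAP 24 h). Others had received medium from a treated organoid culture (indirect CAP) or medium treated without organoids (plasma-activated medium, PAM) for 24 h, from day 1 or from day 2. The sample labels give 30 min and 24 h for the conditioned-medium groups, and the study's methods give the day of exposure, which is used for the names here. Line 3 had no treated library. The line numbers here are not those of the study's own list of lines. The labels give passage 12 for line 1, 14 for line 2 and 4 for lines 3 and 4. By passage, lines 1 and 2 match lines from male mice in the study's list. Lines 3 and 4 would then be lines from female mice, given there at passage 2. Effects of line, of sex and of passage cannot be told apart.

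An inflammasome is a protein platform that forms in the cytosol when a sensor meets a microbial or danger signal. The sensor recruits the adaptor ASC, encoded by Pycard, which gathers pro-caspase-1 so that the caspase cleaves itself. Active caspase-1 then cuts pro-interleukin-18 into its mature form and cuts gasdermin D, whose freed N-terminal part opens pores in the plasma membrane and can end in pyroptosis, a lytic cell death. Caspase-11, encoded by Casp4 in the mouse, binds lipopolysaccharide and cuts gasdermin D without ASC. In the gut, epithelial cells express NLRP6, and interleukin-18 made by the epithelium acts on the barrier and on mucosal immunity. All of these proteins are regulated by cleavage and assembly, which mRNA levels do not measure.

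Of the 10 genes, 7 passed the filter on low values (at least 10 in 3 or more libraries) and 3, the gasdermin C genes, did not. Values are CP20M, taken here as read counts scaled to a common total per library (20007540 to 20016513 in these columns) without division by gene length. The study's legends describe CP20M as per kilobase of transcript. On the reading used here the libraries held an estimated 19.4 to 28.7 M reads, and a value of 1 stood for about 1 read. The libraries had the markers of an epithelial culture. The summed level of 5 epithelial markers (Epcam, Cdh1, Krt8, Vil1, Cdx2) ranged from 77012 to 126907, against at most 17 for 5 fibroblast markers and at most 28 for 3 endothelial markers. The summed level of 8 leukocyte markers was 352 to 536, with no more than 334 in any single gene. Summed stem cell markers (4 of 4 measured: Lgr5, Olfm4, Smoc2, Axin2) had a median of 35870 in untreated organoids, 29039 with the short direct exposure, 8901 with the long one, 12282 and 2152 after indirect CAP and PAM from day 1, and 3542 and 988 after indirect CAP and PAM from day 2. Other cell type markers moved too. Summed Paneth cell markers had a median of 24054.5 in untreated organoids and 6502 (PAM from day 1) to 18931 (indirect CAP from day 2) in treated groups. Enteroendocrine markers had a median of 2025.5 in untreated organoids, 1303 after direct CAP 30 min and 2781 to 4678 in the other treated groups. Their highest median came after PAM from day 1, where libraries spanned 1221 to 7885, beside 1431 to 2473 untreated. Goblet cell markers had a median of 90058.5 in untreated organoids. It was higher after direct CAP for 30 min (113483) and 24 h (107795) and after indirect CAP (124090) and PAM (161308) from day 1. From day 2 it was lower, at 74530 with indirect CAP and 46027 with PAM. Enterocyte markers had a median of 90803.5 in untreated organoids and 98472 to 134703 in treated groups. These sums did not all follow the levels given next, and their part in those levels was not tested. In bulk organoids, fewer cells of a type and less RNA per cell cannot be told apart.

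The plot of levels by library gives the 7 genes side by side.

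**Figure D1:**
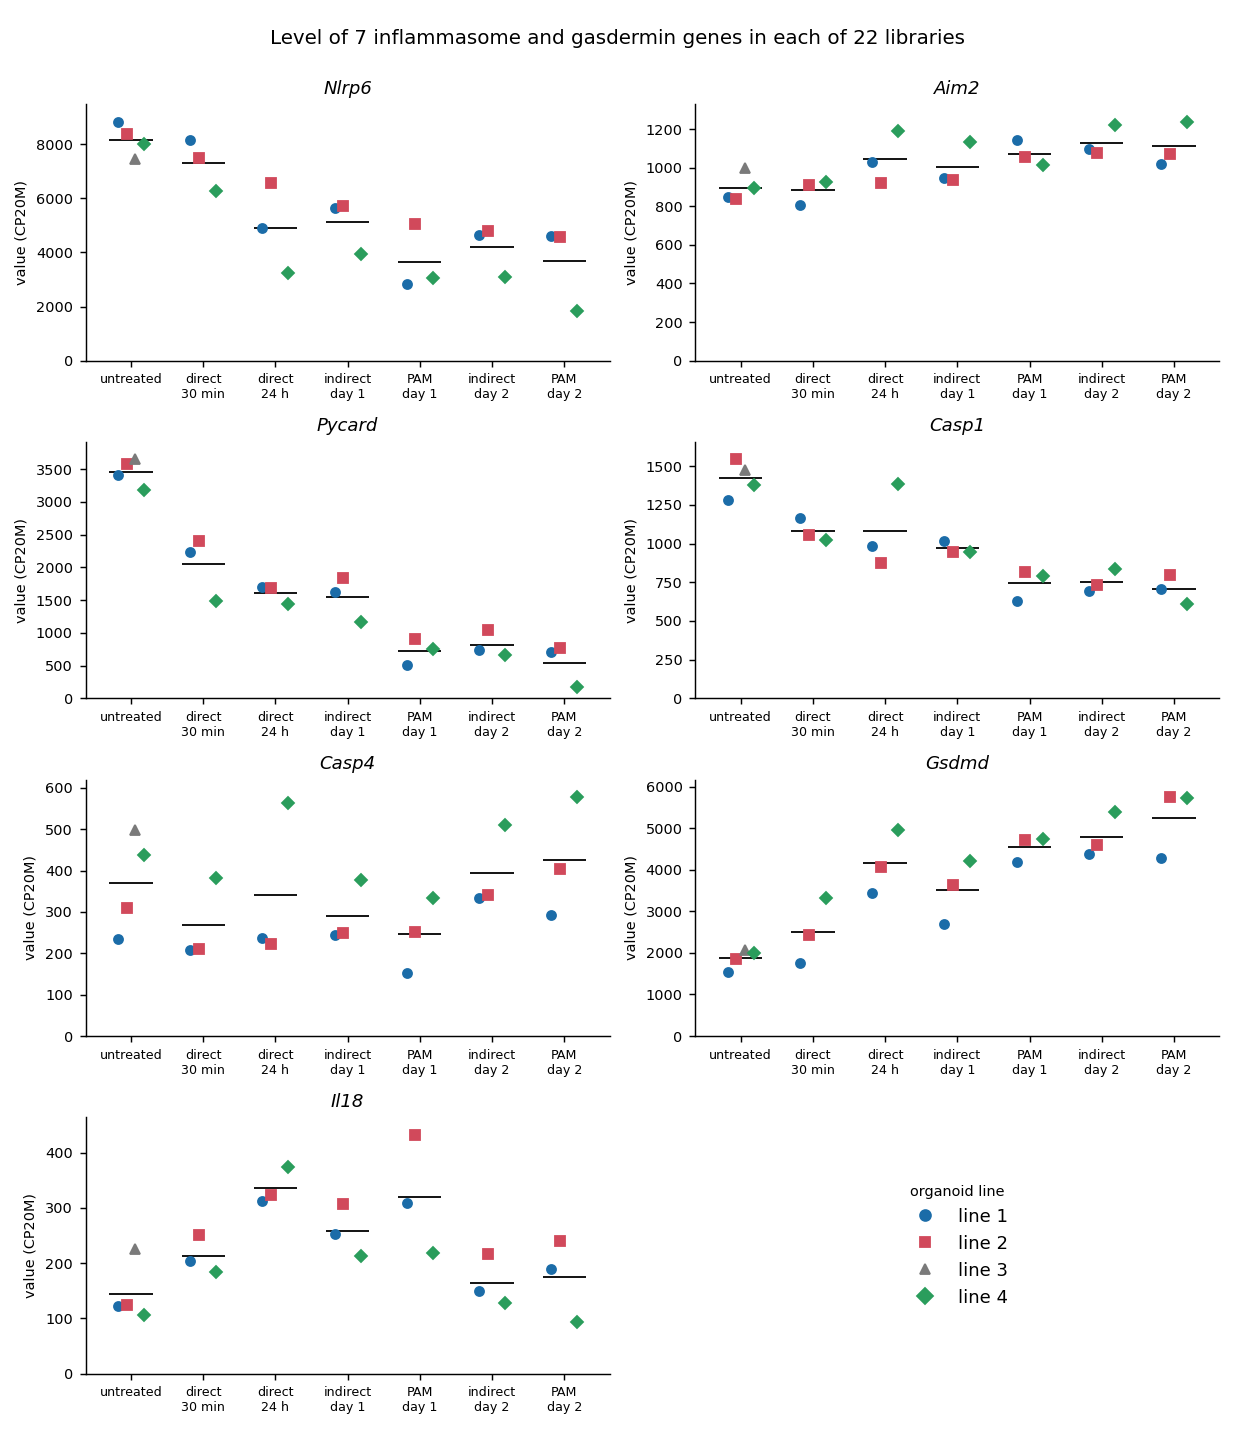
CP20M value (y axis, from 0, a scale of its own in each panel) of Nlrp6, Aim2, Pycard, Casp1, Casp4, Gsdmd and Il18 in each library, by group (x axis). Each point is 1 library, its colour and shape the organoid line, and each bar the group mean. All 18 treated libraries lie below all 4 untreated ones for Pycard, and 17 of 18 lie above them for Gsdmd.

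With all libraries of 24 h CAP exposure from day 1 pooled (direct CAP 24 h, indirect CAP and PAM, 9 libraries of 3 lines) and set against the 4 untreated libraries, 3 of the 7 genes tested passed an adjusted p under 0.01 with a log2 fold change of at least 1 in size. Pycard fell, and Gsdmd and Il18 rose. This fit took the 9 libraries as independent, though each line gave 3 of them. Over all 18490 genes tested, 6.34% passed (4.27% higher and 2.07% lower). The question of this comparison was what a day of contact with plasma or plasma-treated medium did to the transcriptome of normal intestinal organoids, however the plasma was delivered. The study had singled out Pycard from these libraries, so its direction is not independent of that choice. Against each treated group on its own the calls were 0 of 7 after direct CAP 30 min (0.00564% of all genes passed), 2 after direct CAP 24 h (2.17%), 1 after indirect CAP from day 1 (1.31%), 3 after PAM from day 1 (10.2%), 2 after indirect CAP from day 2 (11.9%) and 3 after PAM from day 2 (17.3%). After direct CAP 30 min, 3 of the 7 genes had an unadjusted p under 0.05, as did 24.9% of all 17731 genes tested. The untreated libraries of lines 1 and 2 resembled the treated libraries of each other's line more than those of their own (median r of deviations from group means 0.68 beside 0.177 for line 1, and 0.487 beside 0.239 for line 2), for a reason not tested. Their line labels are in doubt, and each count was also made without both. Then 0 of the 7 genes passed in the pooled comparison, after direct CAP 24 h, after indirect CAP from day 1 and after PAM from day 2, and 2, Pycard and Gsdmd, passed with PAM on day 1 and with indirect CAP on day 2. Few genes of any kind passed in the former fits, 148 of 18365 (pooled), 0 of 16894 (direct CAP 24 h), 0 of 17533 (indirect CAP from day 1) and 1 of 17146 (PAM from day 2), so 0 of 7 does not set these genes apart there. In the pooled comparison Pycard was then at -1.51 (adjusted p = 0.0366), Gsdmd at 0.98 (adjusted p = 0.0115) and Il18 at 0.94 (adjusted p = 0.054), against 2 untreated libraries.

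**Figure D2:**
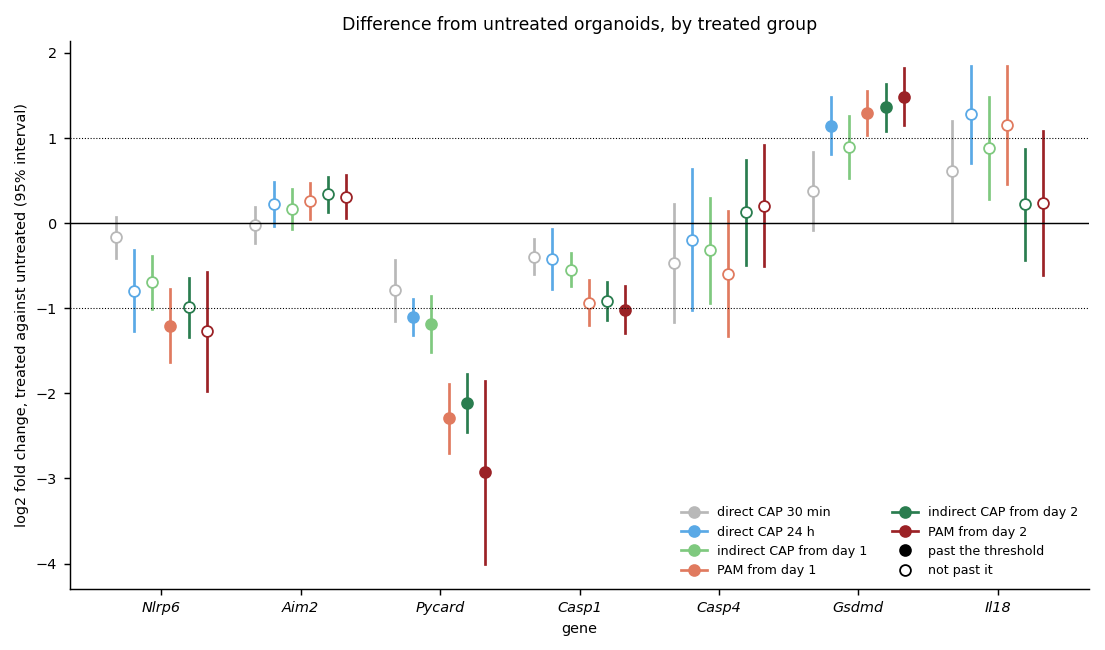
Log2 fold change of each gene (x axis) in each treated group against untreated organoids (y axis), with its 95% interval. Filled points passed the threshold, open points did not, and dotted lines mark log2 fold changes of 1 and -1. Pycard lies below -1 in 5 of 6 groups, while Gsdmd lies above 1 in 4 of 6.

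The stretches of 250 bases upstream of the start sites of Pycard, Casp1 and Nlrp6, the 3 genes whose levels were lower together in treated libraries, are shown from RefSeq on GRCm38.p6, 5' to 3' on the strand of the gene. Capitals mark a match to TGANTCA, the AP-1 site.
Pycard, chr7:127993868-127994117, minus strand: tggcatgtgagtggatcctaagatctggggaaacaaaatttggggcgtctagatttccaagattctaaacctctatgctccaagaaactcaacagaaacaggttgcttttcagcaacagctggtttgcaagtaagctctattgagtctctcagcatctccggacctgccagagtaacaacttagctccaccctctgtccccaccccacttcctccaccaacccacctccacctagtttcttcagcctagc
Casp1, chr9:5298267-5298516, plus strand: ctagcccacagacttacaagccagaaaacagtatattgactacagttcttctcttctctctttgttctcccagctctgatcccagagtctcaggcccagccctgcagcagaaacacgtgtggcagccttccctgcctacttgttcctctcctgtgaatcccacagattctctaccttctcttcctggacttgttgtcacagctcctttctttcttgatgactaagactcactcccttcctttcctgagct
Nlrp6, chr7:140920652-140920901, plus strand: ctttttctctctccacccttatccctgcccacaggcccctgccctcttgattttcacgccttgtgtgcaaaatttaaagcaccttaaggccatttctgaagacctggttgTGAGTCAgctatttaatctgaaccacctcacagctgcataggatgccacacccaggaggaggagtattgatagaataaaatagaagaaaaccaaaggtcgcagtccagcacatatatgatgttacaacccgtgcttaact
Such windows were at hand for Nlrp6, Aim2, Pycard, Casp1, Casp4, Il18 and Gsdmc3. The following patterns were searched on both strands, the interferon response core (GAAA, any 2 bases, GAAA), the AP-1 site TGANTCA, the antioxidant response core TGACNNNGC and the TCF/LEF core CTTTGA. They occur in 2.98%, 6.75%, 10.2% and 13.8% of all 32851 promoter windows of the same length. The only match was TGAGTCA in Nlrp6, at bases 111 to 117 of the window. A match describes letters and not binding.

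Among the sensors, Nlrp6, a NOD-like receptor of the gut epithelium, lay lower in treated libraries. Nlrp6 (ENSMUSG00000038745, 7:140920902-140929192, plus strand, GRCm38) had values of 8838, 8369, 7441 and 7997 in untreated lines 1 to 4. Lines 1, 2 and 4 gave 8140, 7488 and 6270 after direct CAP 30 min, and 4911, 6575 and 3226 after direct CAP 24 h. The short exposure overlapped the untreated range and the long one lay wholly below it, as did 19.1% of all genes. From day 1, the same 3 lines gave 5643, 5734 and 3947 with indirect CAP and 2845, 5059 and 3056 with PAM. From day 2 they gave 4660, 4802 and 3088 with indirect CAP and 4609, 4581 and 1825 with PAM. Thus 16 of 18 treated libraries lay below every untreated one, and line 4 was the lowest of its group in 5 of the 6 treated groups. In the conditioned-medium groups the share of all genes wholly below was 17.7% (indirect CAP) and 29.7% (PAM) on day 1, and 25.8% and 32.6% on day 2. Nlrp6 fell after PAM from day 1 (log2 fold change -1.21 ± 0.19 SE, adjusted p = 0.00156). Its log2 fold change was -0.99 ± 0.15 after indirect CAP from day 2 (adjusted p = 0.00141), just short of the minimum fold, and -1.27 ± 0.30 after PAM from day 2 (adjusted p = 0.0101). With the organoid line as a block the indirect CAP value was -1.03 (adjusted p = 0.00374) and passed. The call also came without the untreated library of line 3 (-1.03) or the indirect CAP library of line 1 (-1.08) or 2 (-1.10), and for PAM from day 2 without the PAM library of line 1 (-1.49, adjusted p = 0.00969), and for direct CAP 24 h without the direct CAP library of line 2 (-1.03, adjusted p = 0.00908). In the pooled 24 h comparison Nlrp6 stood at -0.90 ± 0.20 (adjusted p = 0.0048).

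Aim2, the sensor of double-stranded DNA in the cytosol, moved little. Aim2 (ENSMUSG00000037860, 1:173350879-173466040, plus strand) had values of 846, 839, 999 and 895 in untreated lines 1 to 4. Across the 18 treated libraries it ranged from 809 (direct CAP 30 min, line 1) to 1239 (PAM from day 2, line 4). All 9 libraries of PAM from day 1 and of both day 2 groups lay above every untreated library (17.1% of all genes did so in the PAM group of day 1, and 22.7% and 20.7% in the day 2 groups with indirect CAP and PAM), and in total 12 of 18 treated libraries did and 1 lay below. The log2 fold change was 0.34 ± 0.09 after indirect CAP from day 2 (adjusted p = 0.0163) and 0.31 ± 0.11 after PAM from day 2 (adjusted p = 0.0482), with 95% intervals of 0.13 to 0.54 and 0.06 to 0.56, so a log2 fold change of 1 lay outside both.

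Pycard, the ASC adaptor, had the largest log2 fold change of the 7 genes in size in every group against untreated organoids except direct CAP 24 h, where Il18 and Gsdmd exceeded it. Pycard (ENSMUSG00000030793, 7:127989708-127993867, minus strand) had values of 3404, 3575, 3652 and 3188 in untreated lines 1 to 4. Lines 1, 2 and 4 gave 2239, 2410 and 1485 after direct CAP 30 min and 1701, 1684 and 1435 after direct CAP 24 h. Indirect CAP from day 1 gave 1630, 1839 and 1167. Every one of these 9 libraries was below the lowest untreated value. PAM from day 1 gave 508, 906 and 754. From day 2, indirect CAP gave 743, 1046 and 655, and PAM gave 701, 769 and 171. No treated library in any group reached an untreated one (18 of 18 below), and the lowest value of all was line 4 after PAM from day 2. The share of all genes whose treated libraries all lay below the untreated ones was 11.2% for direct CAP 30 min, 19.1% for direct CAP 24 h, 17.7% (indirect CAP) and 29.7% (PAM) on day 1, and 25.8% (indirect CAP) and 32.6% (PAM) on day 2.

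By the test, Pycard fell by 1.53 on the log2 scale in the pooled 24 h comparison (SE 0.29, adjusted p = 0.00175). Group by group, the log2 fold change was -1.11 ± 0.09 after direct CAP 24 h (adjusted p = 0.00133), -1.18 ± 0.14 after indirect CAP from day 1 (adjusted p = 0.00397), -2.29 ± 0.18 after PAM from day 1 (adjusted p = 0.000101), -2.11 ± 0.15 after indirect CAP from day 2 (adjusted p = 5.16e-05) and -2.93 ± 0.47 after PAM from day 2 (adjusted p = 0.00179). After direct CAP 30 min it was -0.79 ± 0.16 (adjusted p = 0.1), which did not pass. With all 7 groups in 1 fit, the calls for direct CAP 24 h (adjusted p = 0.0465) and indirect CAP from day 1 (adjusted p = 0.0376) were lost. The call for indirect CAP from day 1 also depended on single libraries. It was lost when any of the 4 untreated libraries was left out (adjusted p = 0.0103, 0.0168, 0.0107 and 0.0141 without lines 1 to 4), when the indirect CAP library of line 1 was (0.0125), and when that of line 4 was (log2 fold change -0.99). The calls for PAM from day 1 and for both day 2 groups stayed with any 1 library left out, though the value after PAM from day 2 went to -2.23 without the PAM library of line 4.

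Pycard shares sequence with an annotated transcript on the other strand. Gm45205 (ENSMUSG00000108353, plus strand) carries the biotype TEC, used in the annotation for transcripts that await an experimental test, and covers 485 bases of Pycard exons, 12.8% of their total, at the 5' end of the gene. Its values ranged from 98 to 1952 and were 0.502 to 0.573 of the Pycard value in every library. Of the 19369 genes compared it had the pattern most like Pycard (Pearson r = 0.999 of log2 values over 22 libraries, which share lines and treatments). How strand was used in counting is not given in the sources used here, so reads of the pair cannot be told apart where the annotations overlap. The next 4 genes by likeness were Isoc1 (r = 0.979), Tmem97, a regulator of cholesterol handling (r = 0.972), Ahcy, the enzyme that hydrolyses S-adenosylhomocysteine (r = 0.969), and Vav3 (r = 0.967). Vav3 went from 471.5 ± 108 (SD, n = 4) in untreated organoids to 62.0 ± 36.8 (n = 3) after PAM from day 2, and Ahcy from 4600.5 ± 552 to 1438 ± 462.

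**Figure D3:**
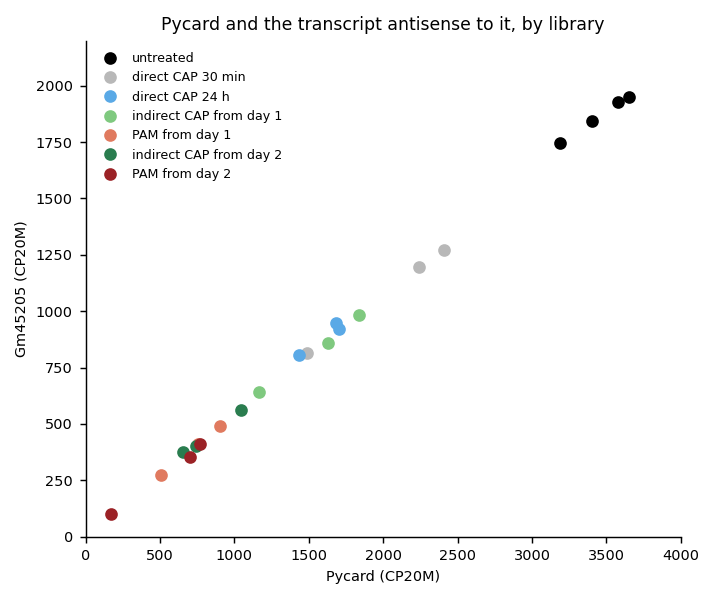
CP20M value of Gm45205 (y axis) against Pycard (x axis), both from 0, with 1 point per library coloured by group. The 22 points lie close to a line through the origin, at 0.502 to 0.573 of the Pycard value.

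Casp1, the caspase that ASC activates, was lower in most treated libraries. Casp1 (ENSMUSG00000025888, 9:5298517-5307265, plus strand) had values of 1283, 1546, 1479 and 1377 in untreated lines 1 to 4. Lines 1, 2 and 4 gave 1165, 1054 and 1022 after direct CAP 30 min, and 986, 874 and 1384 after direct CAP 24 h. Line 4 after direct CAP 24 h was the only treated library inside the untreated range. Indirect CAP and PAM from day 1 gave 1016, 944, 948 and 630, 819, 788. From day 2 they gave 692, 732, 834 and 710, 798, 607. In every group but direct CAP 24 h, all 3 libraries lay below the untreated ones. So did 11.2% of all genes for direct CAP 30 min, 17.7% (indirect CAP) and 29.7% (PAM) on day 1, and 25.8% (indirect CAP) and 32.6% (PAM) on day 2. Casp1 passed only after PAM from day 2 (log2 fold change -1.02 ± 0.12, adjusted p = 0.000576), and this call lay on the minimum fold. It was lost with the organoid line as a block (-0.995, adjusted p = 0.00373), with quantile normalization (-0.84), without the untreated library of line 2 (-0.97) or 3 (-0.995), and without the PAM library of line 4 (-0.91). With PAM on the first day and indirect CAP on the second, the log2 fold changes were -0.94 ± 0.11 (adjusted p = 0.000577) and -0.92 ± 0.10 (adjusted p = 0.000232), under the minimum fold, and the former reached -1.01 and passed without the PAM library of line 2.

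Casp4, the mouse caspase-11 gene, passed in none of the comparisons with untreated organoids. Casp4 (ENSMUSG00000033538, 9:5308828-5336783, plus strand) had values of 235, 309, 497 and 437 in untreated lines 1 to 4. In treated libraries line 4 gave 333 to 578, line 1 gave 153 to 333 and line 2 gave 210 to 404. Line 4 was the highest of lines 1, 2 and 4 in the untreated group and in all 6 treated groups. The treated and untreated ranges overlapped in each group, and the adjusted p ran from 0.17 to 0.767. The 95% interval was -1.16 to 0.22 after direct CAP 30 min, -1.03 to 0.64 after direct CAP 24 h and -1.33 to 0.14 with PAM from day 1, and each of these holds a fall as large as the minimum fold.

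Gsdmd, the pore-forming substrate of caspase-1 and caspase-11, went in the opposite direction from Pycard. Gsdmd (ENSMUSG00000022575, 15:75862327-75867408, plus strand) had values of 1544, 1856, 2080 and 1997 in untreated lines 1 to 4. Lines 1, 2 and 4 gave 1751, 2421 and 3329 after direct CAP 30 min, and 3449, 4062 and 4956 after direct CAP 24 h. Line 1 after the short exposure was the only treated library inside the untreated range. Indirect CAP and PAM from day 1 gave 2703, 3625, 4220 and 4198, 4712, 4740. From day 2 they gave 4389, 4588, 5400 and 4281, 5754, 5730. In all, 17 of 18 treated libraries exceeded every untreated one, and line 1 was the lowest of its 3 lines in all 7 groups. The share of all genes whose treated libraries all lay above the untreated ones was 11.6% for direct CAP 24 h, 16.7% (indirect CAP) and 17.1% (PAM) on day 1, and 22.7% (indirect CAP) and 20.7% (PAM) on day 2.

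Gsdmd rose by 1.11 on the log2 scale in the pooled 24 h comparison (SE 0.14, adjusted p = 0.000165). It rose after direct CAP 24 h (1.15 ± 0.15, adjusted p = 0.00395), PAM from day 1 (1.29 ± 0.11, adjusted p = 0.000176), indirect CAP from day 2 (1.36 ± 0.12, adjusted p = 0.00011) and PAM from day 2 (1.49 ± 0.15, adjusted p = 0.000375). After indirect CAP from day 1 the log2 fold change was 0.90 ± 0.16 (adjusted p = 0.011) and after direct CAP 30 min 0.38 ± 0.20 (adjusted p = 0.276), and neither passed. The direct CAP 24 h call was lost when the untreated library of line 2 (adjusted p = 0.0147) or line 4 (0.0132) or the direct CAP library of line 1 (0.0122) was left out.

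The 3 gasdermin C genes lie next to each other on chromosome 15 and are close paralogs, so a read can fit several of them and their values are uncertain. Of the 100-base windows of the transcripts, Gsdmc2 shared 23.1% with Gsdmc3 and 11.2% with Gsdmc4, and Gsdmc3 shared 14.3% with Gsdmc4. Their values were 0 or 1 in every untreated library, where Gsdmc2 was at 1 in line 4 only and Gsdmc3 was at 0 throughout. In the groups exposed on day 1, none of the 3 exceeded 2. After indirect CAP from day 2, Gsdmc2 was at 59, 3 and 3 and Gsdmc3 at 19, 0 and 2 in lines 1, 2 and 4. After PAM from day 2, Gsdmc2 was at 8, 1 and 23 and Gsdmc3 at 5, 0 and 7 in the same order. Gsdmc4 stayed at or under 3 in all 22 libraries. The highest Gsdmc2 value came from line 1 with indirect CAP and from line 4 with PAM. Fewer than 3 libraries of any comparison reached 10, so the 3 genes entered only the fits without the filter, where none passed by limma. There the adjusted p of Gsdmc2 was 0.038 (indirect CAP) and 0.0313 (PAM) in the day 2 groups, and the unadjusted p was under 0.05 for 2 of the 3 genes and for 3 of the 3, respectively. Of all genes in these fits, 11289 of 33054 (indirect CAP) and 12029 of 33090 (PAM) had such a p.

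Il18, the cytokine that caspase-1 matures, was higher in the groups exposed for 24 h from day 1. Il18 (ENSMUSG00000039217, 9:50554827-50581840, plus strand) had values of 122, 124, 225 and 106 in untreated lines 1 to 4. Lines 1, 2 and 4 gave 204, 252 and 185 after direct CAP 30 min, and 313, 323 and 374 after direct CAP 24 h. All 3 libraries of direct CAP 24 h lay above all untreated ones, as did those of 11.6% of all genes. Indirect CAP and PAM from day 1 gave 253, 308, 213 and 309, 433, 218. From day 2 they gave 150, 217, 128 and 189, 241, 94. The day 2 groups overlapped the untreated range, and the untreated library of line 3, which has no treated counterpart, was the highest untreated one. All libraries of direct CAP 30 min and of indirect CAP from day 2 lay above untreated lines 1, 2 and 4 (106 to 124). Il18 rose by 1.10 on the log2 scale in the pooled 24 h comparison (SE 0.21, adjusted p = 0.00181), with 7 of 9 libraries above all untreated ones. Without the untreated library of line 4 the value was 0.98 (adjusted p = 0.00921), under the minimum fold.

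In single groups Il18 did not pass, with log2 fold changes of 1.28 ± 0.25 after direct CAP 24 h (adjusted p = 0.0126), 0.88 ± 0.26 after indirect CAP from day 1 (adjusted p = 0.0452) and 1.15 ± 0.30 after PAM from day 1 (adjusted p = 0.0164). With the organoid line as a block, in which the unpaired untreated library of line 3 carries no weight, Il18 passed in all 3, at 1.51 (adjusted p = 0.00588), 1.12 (adjusted p = 0.00914) and 1.39 (adjusted p = 0.00628). Leaving out that library alone gave a call after direct CAP 24 h (adjusted p = 0.00522) and PAM from day 1 (adjusted p = 0.00542). After the day 2 exposures the log2 fold change was 0.22 ± 0.28 with indirect CAP (95% interval -0.43 to 0.87) and 0.24 ± 0.37 with PAM (-0.61 to 1.08). After direct CAP 30 min it was 0.62 ± 0.26 (0.03 to 1.20, adjusted p = 0.186). Against the untreated library of the same line, these 30 min values were 0.74, 1.02 and 0.80 higher in lines 1, 2 and 4.

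The order of the genes by level changed with treatment. Per kilobase of annotated exons, the mean CP20M level in untreated organoids (n = 4) was 1606 ± 116 SD for Nlrp6, 949 ± 77.1 for Casp1, 909 ± 54.2 for Pycard, 786 ± 99.2 for Gsdmd, 256 ± 21.1 for Aim2, 140 ± 52.8 for Il18 and 99.6 ± 32.1 for Casp4. In this order Casp1 and Pycard, Pycard and Gsdmd, and Il18 and Casp4 differed by less than the sum of their SDs, and the other neighbours by more. The values were taken as not yet divided by length. The length used is that of all annotated exons of a gene merged. For Pycard it is 3800 bases in 3 blocks, nearly the whole gene at 127989708 to 127993867. The Pycard level per kilobase, its place in the order and the size of its ratio to Gsdmd depend on that length. The same length served in all libraries, so fold differences of the ratio between groups do not. After PAM from day 2 (n = 3) Gsdmd came first at 2211 ± 355 per kilobase, ahead of Nlrp6 at 723 ± 315 and Casp1 at 471 ± 63.9, and Pycard came after Aim2 and Il18 at 144 ± 86.2. The plot of the ratio shows this exchange library by library. Within each library the ratio of Pycard to Gsdmd, both per kilobase, was 0.999 to 1.38 in untreated organoids. It was 0.279 to 0.8 after direct CAP 30 min, 0.181 to 0.309 after direct CAP 24 h, 0.173 to 0.377 and 0.0757 to 0.12 after indirect CAP and PAM from day 1, and 0.0759 to 0.143 and 0.0187 to 0.102 after indirect CAP and PAM from day 2. Line 4 had the lowest ratio of its group in every group but PAM from day 1, where line 1 had it.

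**Figure D4:**
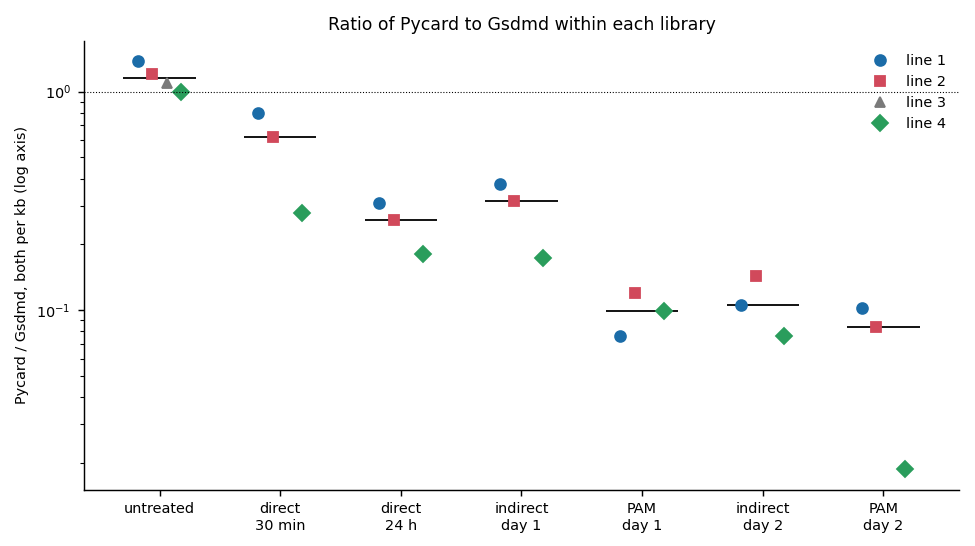
Ratio of Pycard to Gsdmd per kilobase of exon in each library (y axis, log scale) by group (x axis). Points are libraries, marked by organoid line, and bars are group medians. The untreated median is 1.15 and the lowest group median is 0.0836, after PAM from day 2. The size of the ratio depends on the annotated exon lengths.

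Over the 22 libraries, which share lines and treatments, the log2 values of the genes fell into an opposed pattern, given as a description. Pycard correlated positively with Nlrp6 (Pearson r = 0.903) and Casp1 (0.885) and negatively with Gsdmd (-0.832) and Aim2 (-0.781). Aim2 and Gsdmd correlated at 0.845. Il18 and Casp4 stood aside, with r of 0.0648 and -0.215 to Pycard.

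Treated groups were also set against each other, to compare the length of direct exposure, the way of delivery and the day of exposure. Without the line as a block, none of the 7 genes passed by limma in any of these 5 comparisons, where 0%, 0%, 0%, 0.0111% and 0% of all genes passed. These fits leave out the lines that the groups share. With the block, 200 of 17668, 0 of 17672, 58 of 17072, 623 of 17987 and 0 of 17354 genes passed, and of the 7 only Pycard in the third comparison. The block gave an unadjusted p under 0.05 for 4, 2, 3, 7 and 2 of the 7, beside 5380, 3901, 3810, 6485 and 5947 of all genes. The values that follow are without the block unless stated. For 24 h against 30 min of direct CAP, 3 of the 7 genes had an unadjusted p under 0.05, beside 21.4% of all genes, and the Pycard log2 difference was -0.32 (95% interval -0.76 to 0.12) and that of Gsdmd 0.77 (0.21 to 1.33). Indirect CAP from day 1 against direct CAP 24 h gave 0 such genes of 7 beside 6.95%, with Pycard at -0.08 (-0.49 to 0.34). PAM from day 1 against direct CAP 24 h gave 2 beside 10.4%, with Pycard at -1.19 (-1.68 to -0.70, adjusted p = 0.146). With the organoid line as a block this Pycard difference passed (-1.19, adjusted p = 0.00743). For indirect CAP, day 2 against day 1 gave 4 beside 21.7%, with Pycard at -0.93 (-1.45 to -0.40, adjusted p = 0.0764), Gsdmd at 0.46 (0.06 to 0.87) and Il18 at -0.66 (-1.21 to -0.12). For PAM, day 2 against day 1 gave 0 beside 26.8%, with Pycard at -0.64 (-1.99 to 0.72) and Il18 at -0.92 (-1.86 to 0.02).

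The wider pathway was taken as 64 further genes present in the table, in 5 roles, of which 47 were tested in the pooled 24 h comparison. There 7 rose and 1 fell, and the median log2 fold change of the list was 0.09 beside -0.05 over all genes tested. In single groups, the numbers that rose and fell were 0 and 0 of 41 after direct CAP 30 min, 0 and 1 of 44 after direct CAP 24 h, 0 and 0 of 43 after indirect CAP from day 1, 6 and 2 of 44 after PAM from day 1, 1 and 2 of 42 after indirect CAP from day 2, and 2 and 5 of 41 after PAM from day 2. Of all genes tested, 6.34% passed in the pooled comparison and 0.00564%, 2.17%, 1.31%, 10.2%, 11.9% and 17.3% in the 6 groups in that order. Where 0 passed by limma, an unadjusted p under 0.05 was found for 5 genes after direct CAP 30 min and for 15 after indirect CAP from day 1, where 38.6% of all genes had one. With the organoid line as a block, 2 rose and 0 fell after direct CAP 24 h and likewise after indirect CAP from day 1, in both cases Il1rn and Serpinb9. The number called in the pooled comparison dropped from 8 to 4, 3 and 5 without the untreated library of line 1, 2 and 4, and after direct CAP 24 h the single call went to 0 without any of 6 libraries and to 3 without the direct CAP library of line 2. After PAM from day 1 the 8 became 4 when the PAM library of line 1 was left out and 5 when the untreated one of line 2 was, and after PAM from day 2 the 7 became 4 without the untreated library of line 2.

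Among the genes of that list that passed, Il1rn and Il33, both of the interleukin-1 family, had the 2 largest log2 fold changes in size. Of 8 interleukin-1 family cytokines and receptors tested in the pooled 24 h comparison, 3 rose and 1 fell. Il1rn, the antagonist of the interleukin-1 receptor, ranged from 91 to 398 in untreated libraries and from 664 to 2551 in treated ones (log2 fold change 2.72 ± 0.43, adjusted p = 0.000663). Il33, an alarmin of barrier tissues, ranged from 13 to 250 in untreated libraries and from 230 to 2417 in treated ones (3.09 ± 0.80, adjusted p = 0.00933). Il1r1, the signalling receptor of interleukin-1, ranged from 7 to 16 in untreated libraries and from 18 to 55 in treated ones (1.61 ± 0.34, adjusted p = 0.00337), a low level throughout. Il1rap, the accessory chain that the receptors of interleukin-1 and interleukin-33 share, fell, with a range of 252 to 365 in untreated libraries and 77 to 189 in treated ones (-1.26 ± 0.21, adjusted p = 0.000861) and further after PAM from day 2, where it lay at 40 to 78 (-2.41 ± 0.25, adjusted p = 0.000411). The Il33 call was lost in 10 of 13 fits with 1 library left out, among them those without each of the 4 untreated libraries (adjusted p up to 0.0391). The Il1r1 call was lost without the untreated library of line 1 (adjusted p = 0.0168) or 2 (adjusted p = 0.0136). Without the untreated libraries of lines 1 and 2 none of these 4 pooled calls held, with Il1rn at 1.87 (adjusted p = 0.0296) and Il1rap at -1.20 (adjusted p = 0.0257). Il1b, the other main substrate of caspase-1, did not exceed 2 in any library.

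Among the 15 other sensors and adaptors, 11 were tested in the pooled comparison and 2 rose, both at low level. Nlrp10, a NOD-like receptor, ranged from 6 to 11 untreated and from 12 to 49 treated (1.44 ± 0.31, adjusted p = 0.0032). Ifi204, an interferon-inducible DNA sensor, ranged from 0 to 6 untreated and from 9 to 19 treated (2.26 ± 0.44, adjusted p = 0.00197). Both folds depend on the constant added before taking logs, and with 10 in place of 1 they were 0.93 and 0.88, under the minimum. The Nlrp10 call was also lost without the untreated library of line 2 (adjusted p = 0.0156). Naip5, the receptor that detects bacterial flagellin for the NLRC4 inflammasome, fell after PAM from day 2, where it lay at 330 to 395 beside 770 to 991 in untreated libraries (-1.22 ± 0.13, adjusted p = 0.000411). Nlrc4 itself was present at 924 to 1735 across all libraries. Nlrp3, the best studied inflammasome sensor, did not exceed 2 in any library.

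Of the 7 other caspases, 6 were tested in every group. Casp6, an executioner caspase, lay at 1459 to 1634 in untreated libraries and fell after indirect CAP from day 2, where it lay at 348 to 576 (-1.70 ± 0.16, adjusted p = 0.00016), and after PAM from day 2, where it lay at 133 to 582 (-2.13 ± 0.47, adjusted p = 0.00729). The latter call was lost with the organoid line as a block (Casp6 -2.10, adjusted p = 0.0132) and without any of the 4 untreated libraries (adjusted p of 0.0184 to 0.0212). Of 8 further gasdermin and membrane rupture genes, 4 were tested in the pooled comparison, where none passed, and 2 after PAM from day 2. In the latter group 17.3% of all genes passed, and so did 1 of the 2, the gasdermin E gene (listed as Dfna5). It fell (-1.05 ± 0.13, adjusted p = 0.000636) and was named after its value was seen. Without the PAM library of line 2 the Dfna5 value was -0.98. Among 23 regulators, Serpinb9, an inhibitor of granzyme B, rose in the pooled comparison, with 10 to 48 untreated and 42 to 217 treated (2.16 ± 0.50, adjusted p = 0.00514), a call lost without the untreated library of line 1 (adjusted p = 0.0262), 2 (0.0222) or 4 (0.0103). P2rx7, the ATP-gated channel upstream of NLRP3, was at 0 to 5 in untreated libraries and 2 to 16 in treated ones (2.11 ± 0.54, adjusted p = 0.00853), a log2 fold change of 0.64 with 10 added before taking logs, and the call was lost in 7 of the 10 fits with 1 library left out in which the gene passed the filter (adjusted p up to 0.039). Serpinb1a, an inhibitor of neutrophil proteases, rose after PAM from day 1, with 3164 to 3898 untreated and 7800 to 9285 treated (1.25 ± 0.10, adjusted p = 0.00015). Irf8, a transcription factor for Naip genes in macrophages, fell after PAM from day 2, with 1018 to 1455 untreated and 263 to 520 treated (-1.52 ± 0.24, adjusted p = 0.00184). Of the same regulators, Mlkl rose after PAM from day 1 (1.09 ± 0.22, adjusted p = 0.00464) and Ripk3 after PAM from day 2 (1.04 ± 0.18, adjusted p = 0.00233). The Mlkl call was lost in 5 of 7 fits with 1 library left out, and the Ripk3 call in 2 of 7.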

How the data were processed

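RNA-seq libraries of 22 organoid cultures were read from 1 table of 52636 genes. The deposited values are treated as a score, since the authors scaled read counts to a common total per library (CP20M) and rounded them. Each column sums to 20007540 to 20016513, and the values were taken as not divided by length, unlike the description in the study's legends. The column sum alone does not show this, and the levels per kilobase rest on it. Per the labels and the study's methods, reads were trimmed with Trimmomatic 0.36, aligned with STAR 2.5.3a to GRCm38 and counted with HTSeq 0.9.1. Depth was estimated from the steps between low values, checked on 12 simulated libraries (error up to 0.0606%).

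log2(value + 1) was tested with limma 3.58.1 in R 4.3.3 (trended moderated test, Benjamini-Hochberg adjustment over all genes tested), after keeping genes with a value of at least 10 in 3 or more libraries of the comparison. The study's thresholds were kept, so that a call needed an adjusted p below 0.01 together with an absolute log2 fold change of 1 or more. Fold changes are on the log2(value + 1) scale and understate those of low genes. Each comparison used its own groups. Tested on simulated data for 3 comparisons, the fit found 200 of 200 changed genes with at most 1 false call. Those changes were all larger than the minimum fold, and the simulated libraries were independent, with no line effect. The result checks the working of the fit and does not measure its power or false calls in these data. The comparisons were repeated after quantile normalization, with 10 added in place of 1, without the filter, in a single fit of all groups, with the line as a block, with a looser call (adjusted p below 0.05 at any fold), and with each library left out in turn. The genes and lists were chosen with earlier results of these data known. Genes named beyond the 10 were listed genes that passed, up to the 12 with the largest log2 fold change in size, and the 5 most like Pycard by Pearson r. Il1b, Nlrp3, Nlrc4, Dfna5, Mlkl and Ripk3 were named outside this rule.

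Libraries with 1 number come from the same line, that is the same mouse, which pairs them. Deviations from group means of same-line treated libraries correlated at 0.263 to 0.918 in 45 of 45 pairs. The untreated library of line 1 correlated with treated line 1 at a median of 0.177 and with treated line 2 at 0.68, and that of line 2 at 0.239 with its own line and 0.487 with line 1, so the block has a limit here and results are given without these 2 libraries too. No 2 of the 24 replicate pairs checked held identical values. Replicates are lines, and the 9 libraries of the pooled comparison come from 3 lines. Its fit without the block counts them as independent, so its SEs and adjusted p-values do not allow for the shared lines.

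Gene coordinates come from GENCODE vM21 (GRCm38) and promoter sequences from RefSeq.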

Additional observations from a re-analysis of the deposited data

Results flagged for a closer look

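A library stood apart from the others of its set in 4 of 19 sets of values checked, by the gap to its nearest neighbour over the whole range. A set held the untreated libraries or those of 24 h exposure from day 1, which mix 3 treatments. For normally distributed values chance flags about 1 in 20 sets. That rate does not hold for low whole numbers, where 1 library at 1 beside others at 0 is always flagged. The untreated library of line 3 had an Il18 value of 225, beside 106 to 124 in the other untreated libraries. The remaining cases lay near the limit of counting: Gsdmc2 at 1 in the untreated library of line 4 and 0 in the others, Gsdmc3 at 2 in the indirect CAP library of line 1 from day 1 and at most 1 in the other 8 libraries of 24 h exposure from day 1, and Gsdmc4 at 0 in the direct CAP 24 h library of line 4 and at least 1 in the others of that set.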

How the results depend on the processing

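No inflammasome or gasdermin gene that passed changed direction under any alternative. With the looser call (adjusted p below 0.05 at any fold), inflammasome and gasdermin genes passing, of 7 tested, numbered 5 in the pooled 24 h comparison, 4 after direct CAP 24 h and 5 in each of the other 24 h groups. Pathway list genes passing were 19 of 47, 12 of 44, 8 of 43, 18 of 44, 17 of 42 and 19 of 41 (pooled, direct, indirect and PAM from day 1, indirect and PAM from day 2). Of all genes, 6187 of 18490, 2995 of 17335, 3662 of 17818, 7253 of 17357, 7819 of 17860 and 8419 of 17694 passed this call, in the same order. Without the untreated libraries of lines 1 and 2, a choice made after seeing the data, 0 of the 7 passed in the pooled comparison, after direct CAP 24 h, after indirect CAP from day 1 and after PAM from day 2, and the list gave 1 (pooled), 0 (direct CAP 24 h), 3 (PAM from day 1) and 0 (PAM from day 2). The single list gene left in the pooled comparison was Ifi204. These fits have 2 untreated libraries, and of all genes 148, 0, 0 and 1 passed in those 4 comparisons, in the order given. Casp4 turned to -0.27 (indirect CAP) and -0.19 (PAM) in the day 2 groups there. With all 7 groups in 1 fit, 0 of the 7 passed after indirect CAP from day 1 and 3 list genes after direct CAP 24 h, where Pycard no longer passed (adjusted p = 0.0465) and Il18 did (adjusted p = 0.00989). Il18 passed there with PAM from day 1 as well (adjusted p = 0.006), and Nlrp6 with PAM from day 2 (adjusted p = 0.00155). The list gave 5 in the pooled comparison with quantile normalization and 5 with a pseudocount of 10. Quantile normalization moved the median over all genes (log2 scale) from -0.12 to 0.00 after PAM from day 2, where Pycard became -2.75, Gsdmd 1.47, Nlrp6 -1.28 (now past the threshold) and Casp1 -0.84 (no longer past it).

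With the line as a replicate block, 2 genes passed after indirect CAP from day 1 (Pycard and Il18) and 1 in PAM from day 1 against direct CAP 24 h (Pycard). The list gave 2 after direct CAP 24 h and 2 after indirect CAP from day 1. Aim2 after direct CAP 30 min turned to 0.034 with the block and 0.013 with quantile normalization.

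Leaving out 1 library at a time, the genes passing numbered 2 to 3 in the pooled comparison, 1 to 3 after direct CAP 24 h, 0 to 1 after indirect CAP from day 1 and 2 to 4 after PAM from day 2, and the list gave 3 to 8, 0 to 3 (direct CAP 24 h), 4 to 9 (PAM from day 1) and 4 to 7 (PAM from day 2). Values that changed sign were those of Aim2 after direct CAP 30 min (-0.057 to 0.040), Casp4 after direct CAP 24 h (-0.62 to 0.043), after PAM from day 2 (-0.045 to 0.45) and after indirect CAP from day 2 (-0.071 to 0.29), Il18 after PAM from day 2 (-0.048 to 0.63), and between treated groups Pycard in indirect CAP from day 1 against direct CAP 24 h (-0.22 to 0.11), Pycard in PAM from day 2 against day 1 (-1.02 to 0.063) and Il18 in PAM from day 1 against direct CAP 24 h (-0.37 to 0.12). None of these had passed the test. Where no value shows it, the cause of a change was not tested.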
